A study of Hordeum vulgare with 28 samples.

Results

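Among the genes measured in barley leaves, 89 of 25592 were low after sandpaper wounding at 2 h and low under both spider mites at 24 h. They were selected on their mean CPM, the count of a gene scaled to the total of its library, in 4 of the 7 groups. A member had a mean of 5 to below 1000 CPM in control leaves (C). Its log2 ratio to C, computed as L = log2((mean CPM + 0.5)/(mean CPM in C + 0.5)), was at most -1.5 in W2, at most -2 in O24 and at most -1 in T24. The values in C, W2, O24 and T24 therefore chose these genes, and they are given below as a description. Only O2, T2 and W24 bring libraries that the choice did not use.

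Leaf transcriptomes of *Hordeum vulgare*, cultivar Morex, were measured in 28 samples that formed 7 groups of 4. All plants were 30 days old, leaf number 5 was taken, and every leaf carried a wax barrier around the treated section. C leaves received nothing else. O2 and O24 leaves were fed on by adult females of *Oligonychus pratensis* (BGM in the labels), a grass specialist, for 2 or 24 h. T2 and T24 leaves were fed on by adult females of *Tetranychus urticae* (TSSM), a generalist, for the same times. Sections carried 400 mites at 2 h and 200 mites at 24 h, so time and mite number cannot be told apart. W2 and W24 leaves were wounded with sandpaper 2 or 24 h before collection, without mites. A replicate was the enclosed section of a single leaf, and C was a single group sampled once, at the common time of collection.

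When a leaf is torn or pierced, damage signals and jasmonate hormones raise defence genes within hours. At the same time, transcripts for growth and photosynthesis often decline. Spider mites empty single mesophyll cells through a stylet, so feeding damage accumulates over a day, whereas sandpaper opens many cells at once. The question here is how a set of genes low under both kinds of damage behaved early in mite feeding and a day after a single wounding.

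Of 10977 genes with a control mean in the range, 389 passed the W2 threshold, 215 the O24 threshold and 318 the T24 threshold. The 89 that passed all of them were 22.9%, 41.4% and 28% of those lists. Just inside the limits, members reached -1.52 in W2, -2.01 in O24 and -1.03 in T24. Just outside, the nearest genes that failed a single limit lay at -1.497 (W2), -1.97 (O24) and -0.97 (T24). A further 27 genes missed the W2 limit alone by 0.25 or less, 32 the O24 limit and 7 the T24 limit. Control means of members ran from 5.47 to 881.5 CPM. They lay under 20 CPM in 20 members, from 20 to under 100 CPM in 44 and at 100 CPM or more in 25. Median L in O24 was -2.37, -2.49 and -2.82 in these classes.

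Only 5 members had a row in the part of the study's orthologue table used here, which pairs 1998 barley genes with *Arabidopsis thaliana* genes by reciprocal best protein matches. Roles below come from those *A. thaliana* counterparts. The other 84 had no row in that part and are given without a role. Of the 10977 genes in range, 1408 (12.8%) had a row, and the difference from the members was not tested.

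The members took a smaller share of the counts in W2, O24 and T24, where the rule required them to be low, than in the other groups. Together they held 1.06% ± 0.0809 of all counts in C (SD, n = 4), 0.235% ± 0.0544 in W2, 0.142% ± 0.0326 in O24 and 0.306% ± 0.0856 in T24. In the groups not used to choose them they held 0.888% ± 0.162 (O2), 0.817% ± 0.0283 (T2) and 0.921% ± 0.173 (W24). The 4 libraries of each of O2, T2 and W24 all lay above every library of W2, O24 and T24. Every T2 library (0.787% to 0.854%) lay below every C library (0.976% to 1.17%), while O2 and W24 overlapped C. The C libraries helped choose the members, so these comparisons with C are not independent of the choice. In bulk leaf RNA, fewer cells of a type and less RNA per cell cannot be told apart.

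**Figure D1:**
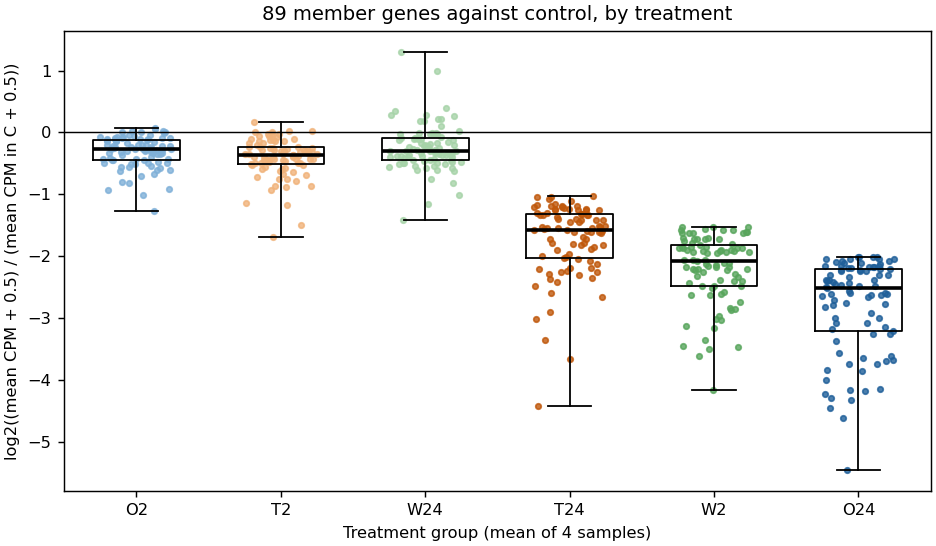
Each point is 1 of 89 members; the vertical axis is log2 of (mean CPM + 0.5) over (mean CPM in C + 0.5), the box spans the quartiles, the bar is the median and the whiskers reach the extremes. W2, O24 and T24 were limited by the rule, while the medians of O2, T2 and W24, which it did not limit, were -0.27, -0.36 and -0.30.

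Within the limits the rule set, depth differed among treatments and members. Median L was -2.52 in O24 (range -5.45 to -2.01), -2.08 in W2 (-4.17 to -1.52) and -1.58 in T24 (-4.41 to -1.03). O24 held the lowest group mean in 78 members and W2 in the other 11. The order O24, W2, T24 from lowest to highest held in 69 members, the order W2, O24, T24 in 11 and the order O24, T24, W2 in 9. All 89 had a lower mean in O24 than in T24, and in 42 the O24 libraries lay below the T24 libraries without overlap (17.5% of the 16948 genes tested). The rule set a lower limit for O24 than for T24, so nothing is read from this order. L reached -3 or less in 27 members in O24, 10 in W2 and 4 in T24.

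The genome-wide fit gives the same groups on another scale. Counts were tested with edgeR's quasi-likelihood method, and a gene counted as called when its adjusted p was under 0.01 and it changed by more than 1 on the log2 scale. All 89 members passed the filter on low counts, which the control minimum of the rule leads to. Of them, 87 were called lower in W2, 89 in O24 and 87 in T24, against 12.6%, 15.6% and 5.79% of all genes tested. These counts follow from the choice and add nothing to it. For comparison, 19.3%, 20% and 14.1% of all genes were called higher in W2, O24 and T24.

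The member whose role is best known is MLOC_11021, the counterpart of CKX1, a cytokinin oxidase that breaks down cytokinin, a hormone of cell division and leaf greening. MLOC_11021 stood at 46.39, 30.99, 41.48 and 40.77 CPM in C. It stood at 9.647, 3.124, 4.697 and 7.482 CPM in W2. In O24 it was 2.961, 3.991, 2.211 and 2.13 CPM, and in T24 it was 5.222, 11.17, 12.15 and 6.544 CPM. The highest library of these 3 groups lay below the lowest control. The remaining groups overlapped the controls, with libraries on both sides of their range in O2 and T2 and 2 below it in W24: 23.07, 36.58, 38.93 and 53.6 CPM in O2, 40.6, 24.77, 47.29 and 36.2 CPM in T2, and 34.21, 38.13, 24.77 and 26.76 CPM in W24. The MLOC_11021 mean in W24 was 77.6% of C, and W24 was called neither against O2 (log2 fold change -0.35, SE 0.29, edgeR adjusted p = 0.445) nor against T2 (-0.36, SE 0.29, adjusted p = 0.435).

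The growth hormone list gave calls in both directions. Of its 15 genes, 13 were tested, MLOC_11021 included. In W2, 3 were called, all of them lower, in O24 2 lower and 4 higher, and in T24 1 lower (MLOC_11021) and 4 higher. Over all genes tested 12.6% were called lower in W2, 15.6% lower and 20% higher in O24, and 5.79% lower and 14.1% higher in T24. The median log2 fold change of the list was -0.09, 0.24 and -0.06, beside -0.02, 0.01 and 0.02 over all genes tested; other scalings shifted the median of all genes by up to -0.20 in W2 and 0.22 in O24 and T24. In O24 the counterpart of AHK4, a cytokinin receptor (MLOC_10709), was higher by 1.69 on the log2 scale (edgeR adjusted p = 2.73e-08). CKX5, the other cytokinin oxidase on the list (MLOC_16499), had a log2 fold change of 0.24 in O24 (adjusted p = 0.455). In T2 MLOC_16499 was higher by 1.42 (adjusted p = 0.0016), where 2.47% of all genes were called higher. In W2 the genes called lower beside MLOC_11021 were the counterparts of CPD (MLOC_10658, -1.13), an enzyme of brassinosteroid synthesis, and ARF2 (MLOC_18401, -1.10), an auxin response factor. No other list member met the rule.

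MLOC_12553 and MLOC_20418 were the most abundant members with a counterpart. MLOC_12553 matches PCAP1, a protein at the plasma membrane that binds cations and phosphoinositides. MLOC_12553 read 377.1, 453.7, 357.7 and 260.4 CPM in C and 83.99, 68.39, 89.86 and 68.91 CPM in O24. In W24 it read 414, 352.2, 394.8 and 263.7 CPM, a mean of 98.3% of control, and the W24 and C libraries overlapped. Means were 301.4 CPM ± 75.9 in O2, 285.6 CPM ± 68.6 in T2, 111 CPM ± 28.8 in W2 and 132.1 CPM ± 38.5 in T24 (SD, n = 4).

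MLOC_20418, whose counterpart is an F-box protein of the family that marks proteins for degradation, was the steadiest of them in C. It read 223.7, 229, 220.3 and 213.3 CPM in C and 63.9, 25.9, 40.26 and 44.56 CPM in W2. In W24 it read 180.4, 172.2, 154.1 and 164.6 CPM, all below the lowest control, with a mean of 75.7% of C. It read 173.5, 173.4, 171.4 and 155.1 CPM in T2, also all below C. Neither group was called against C (edgeR log2 fold change in W24 -0.52, SE 0.17, adjusted p = 0.0302; in T2 -0.43, SE 0.17, adjusted p = 0.21). MLOC_20418 had an O24 mean of 49.27 CPM ± 5.79 (SD, n = 4) and 87.89, 104.7, 99.12 and 63.41 CPM in the T24 libraries, and an O2 mean of 199.2 CPM ± 20.2.

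MLOC_15777 is the counterpart of a thylakoid lumenal protein of the chloroplast. It read 68.12, 39.16, 58.22 and 67.72 CPM in C and 11.14, 10.08, 10.63 and 11.31 CPM in O24. The O24 libraries were tight and lay below every T24 library (23.89, 23.46, 16.47 and 15.17 CPM). MLOC_15777 was at 54.13 CPM ± 11 in W24, 92.8% of C, with overlapping libraries.

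MLOC_21153, the counterpart of a probable N-acetyltransferase, was low in both 2-h mite groups but not a day after wounding. It read 17.35, 26.12, 24.66 and 19.48 CPM in C. In T2 it read 8.688, 8.883, 12.57 and 8.568 CPM, and in O2 10.16, 9.277, 14.98 and 11.35 CPM. Every 2-h mite library lay below every control. In W24 MLOC_21153 read 28.91, 17.29, 28.53 and 27.87 CPM, above all O2 and T2 libraries. It was the lone member called in T2 against C (edgeR log2 fold change -1.19, SE 0.26, adjusted p = 0.00425), where 0.0236% of all genes were called lower. The O2 value was -0.99 (SE 0.26, adjusted p = 0.0179). W24 was above T2 by 1.30 (SE 0.26, adjusted p = 0.000766) and above O2 by 1.10 (SE 0.26, adjusted p = 0.00306). The T2 call against C was lost without C replicate 2 or 3, or T2 replicate 1, 2 or 4, with log2 fold changes of -1.14, -1.12, -1.12, -1.15 and -1.13 and adjusted p from 0.0153 to 0.0249. The call of W24 over O2 was lost without O2 replicate 1, 2 or 4 or W24 replicate 1 or 3 (adjusted p from 0.0107 to 0.0152).

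The most abundant member with no counterpart row was MLOC_81109. It read 916.9, 648.5, 1021 and 940.1 CPM in C and 112.8, 147.3, 113.9 and 67.76 CPM in O24. In W24 MLOC_81109 read 1093, 599.8, 556.5 and 619.9 CPM, so replicate 1 stood above the other 3. The lowest L in O24 was that of MLOC_37052, which read 10.12, 9.029, 33.48 and 6.555 CPM there. Its controls, however, spanned 337.3, 1831, 409.8 and 95.06 CPM, and replicate 2 alone raises the control mean to 668.2 CPM. In the edgeR fit the O24 log2 fold change of MLOC_37052 was -5.65, and another member lay lower, at -5.88. MLOC_37052 stood at 301.2 CPM ± 104 in W24 and 331.3 CPM ± 57.2 in O2, within that span. Its W2 libraries, at 228.7, 193.5, 91.86 and 227.8 CPM, overlapped the controls. It was not called lower in W2 (edgeR log2 fold change -1.80, SE 0.65, adjusted p = 0.016).

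**Figure D2:**
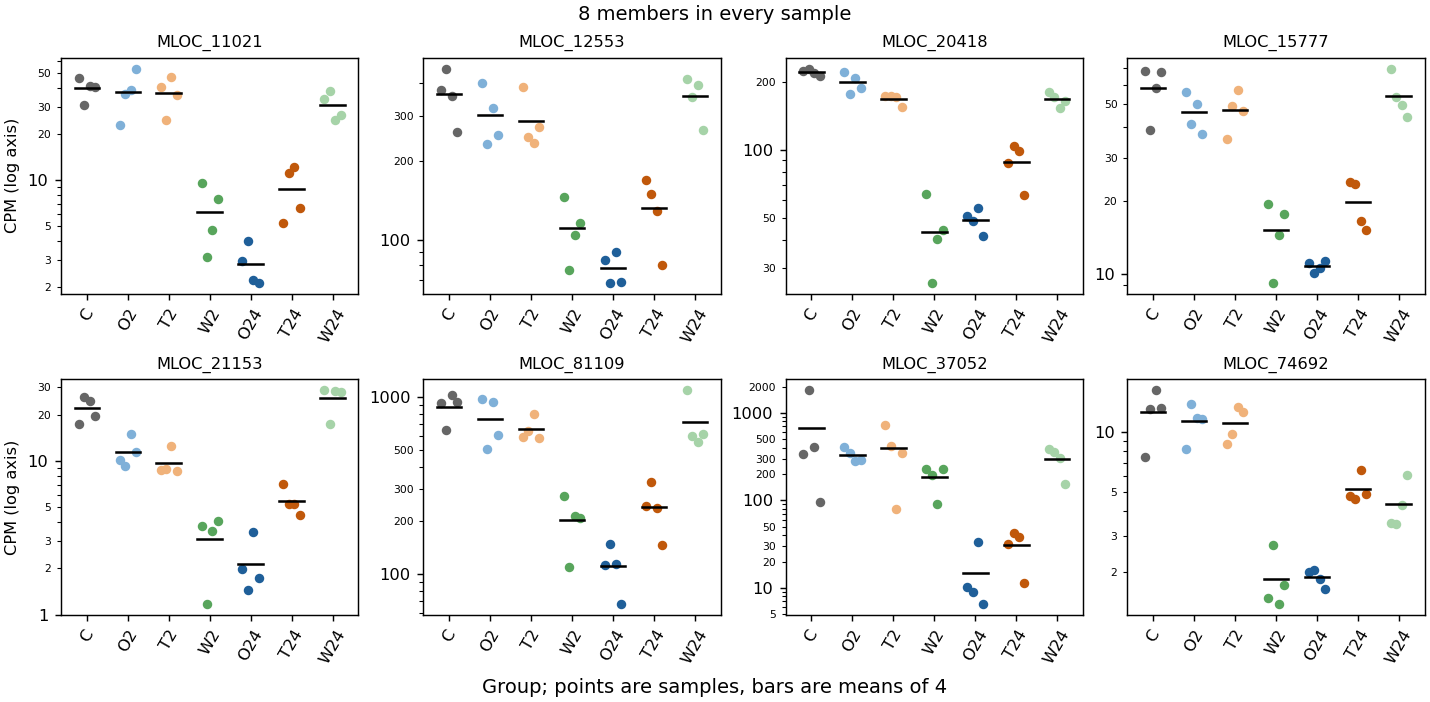
CPM on a log axis for the 7 members named by rule and MLOC_74692, by group, with 1 point per sample and a bar at the mean of 4. The W2, O24 and T24 means lie below C in every panel; MLOC_21153 is low in O2 and T2, and MLOC_74692 stays low in W24, at 3.51, 3.48, 4.31 and 6.09 CPM.

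Early in mite feeding most members lay somewhat below the control level. In O2, 82 had a mean below C and 71 had L over -0.5. In T2, 84 had a mean below C and 66 had L over -0.5. Over the genes in range, L had a median of 0.04 in O2 (quartiles -0.05 and 0.12) and 0.01 in T2 (-0.07 and 0.10). L was at or under -1 in 2 members in O2 and 4 in T2. By edgeR 0 of 89 were called lower in O2, against 0.0177% of all genes; 19 had an unadjusted p under 0.05 with edgeR and 19 with DESeq2, which also called 0. All 19 in edgeR were lower, where 5.32% of all genes were lower at that level. In T2, 21 members were lower at that level, against 4.53% of all genes. The T2 call was that of MLOC_21153, and 0 members were called higher in either group (0 with an unadjusted p under 0.05 by edgeR), where 2.63% (O2) and 2.47% (T2) of all genes were. The median log2 fold change of the members was -0.32 in O2 and -0.41 in T2, beside -0.01 and -0.02 over all genes. These comparisons share the 4 control libraries that helped choose the members, so the shifts are not independent of the choice. Without C replicate 2 or O2 replicate 3, 1 member was called lower in O2. The count over all genes then was 11 and 9, beside 3 in the main fit.

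O2 and T2, which did not enter the choice, were compared directly. The fit estimated variation from all 28 samples, so SE and adjusted p drew on the libraries of the choice as well. A fit of O2 and T2 alone also called 0 members. The comparison asks whether the members separate the specialist from the generalist early. By edgeR 0 of 89 members were called, as were 0 of 16948 genes in all (0%), and DESeq2 called 0 members. An unadjusted p under 0.05 was found for 2 members with edgeR, higher in O2, and 1 with DESeq2. Over all genes, 1.66% were higher and 1.39% lower in O2 at that level by edgeR, so these members set nothing apart. Member log2 fold changes of O2 over T2 ran from -0.64 to 1.36, with a median of 0.05.

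A day after wounding most members were moderately below or near the level of C. In W24, 76 had a mean below C, 74 had L over -0.5 and 13 exceeded C. The mean reached 80.4% of control in the median member (quartiles 73.1% and 93.8%). Over the genes in range, L in W24 had a median of 0.08 (quartiles -0.07 and 0.25). In 86 of 89 members every W24 library lay above every W2 library, a state found in 31.9% of all genes tested; W2 was among the groups that chose them. Called lower in W24 than in C were 2 members (2.25%, against 0.277% of all genes), and 0 were called higher (1 with an unadjusted p under 0.05), against 5.72% of all genes; DESeq2 also called 2 members. An unadjusted p under 0.05 in the lower direction was found for 25 members, against 14.2% of all genes. The median was -0.44, beside -0.01 over all genes. The same control libraries again entered the choice. Without C replicate 2 or W24 replicate 1 the count of members was 4. The count over all genes then was 68 and 53, beside 47 in the main fit.

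These 2 were MLOC_74692 and MLOC_12836, named after their values were seen; no counterpart row was held for them. MLOC_74692 read 7.45, 13, 16.2 and 13.2 CPM in C and 3.51, 3.48, 4.31 and 6.09 CPM in W24, without overlap. Its W24 log2 fold change against C was -1.64 (SE 0.22, edgeR adjusted p = 4.04e-06). MLOC_74692 was at 11.3 CPM ± 2.3 in O2 and 11.1 CPM ± 2.2 in T2 (SD, n = 4), and W24 was below O2 (-1.43, SE 0.23, adjusted p = 4.41e-05) and T2 (-1.44, SE 0.23, adjusted p = 4.45e-05). MLOC_12836 read 46.9, 34, 38.7 and 38 CPM in C and 23.8, 15.7, 19.1 and 18.4 CPM in W24 (log2 fold change -1.16, SE 0.18, adjusted p = 4.22e-05). Leaving out any 1 library of the groups compared kept these calls, with values of -1.85 to -1.49 for MLOC_74692 and -1.30 to -1.06 for MLOC_12836 against C.

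W24 was then compared with the 2-h mite groups, which like W24 did not enter the choice. Variation was again estimated from all 28 samples. Treatment and time differ together here. Against O2, 2 of 89 members were called, 1 in each direction, where 5.35% of all genes were called. Against T2, 4 were called, 3 higher and 1 lower in W24, where 5.29% of all genes were. Fits of only the groups compared called 3 members against O2 and 3 against T2, where 708 and 851 of the 16948 genes were called. The members' shares, near or under those of all genes, set nothing apart. The medians were -0.07 and -0.03, beside 0.00 and 0.01 over all genes. The lower call was MLOC_74692 both times and MLOC_21153 was higher both times. The further calls higher in W24 than T2, named after their values were seen, were MLOC_11896 and MLOC_18612. MLOC_11896 read 61.6, 36.7, 66.4 and 70.3 CPM in W24 and 13, 10.9, 8.15 and 8.49 CPM in T2 (2.46, SE 0.46, adjusted p = 0.000374). Its controls read 13.6, 32.1, 39.7 and 9.03 CPM. MLOC_18612 read 42.2, 12.5, 17.2 and 11.2 CPM in W24 and 2.61, 4.19, 3.44 and 2.88 CPM in T2 (2.59, SE 0.61, adjusted p = 0.00385). That call was lost without T2 replicate 1, 3 or 4 (2.48, 2.65 and 2.53) and without W24 replicate 1 (1.93, adjusted p = 0.0259), and in a fit of W24 and T2 alone (2.58, adjusted p = 0.0125).

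**Figure D3:**
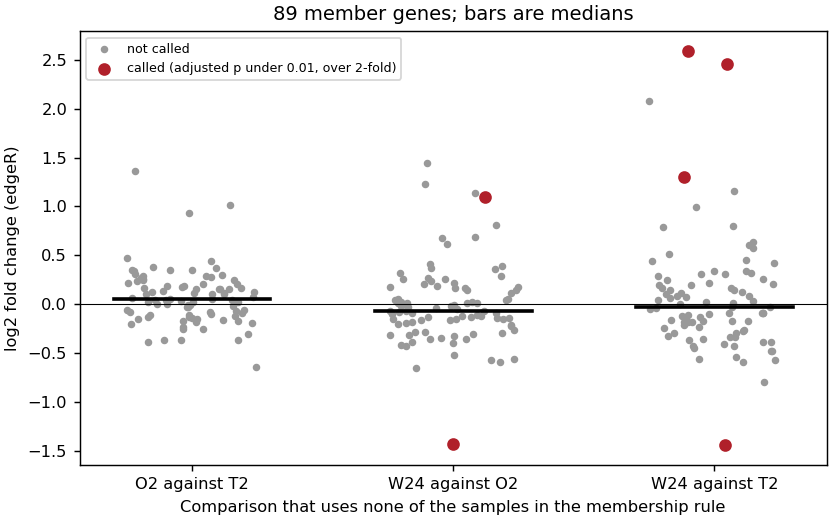
edgeR log2 fold change of each of 89 members in the 3 comparisons between groups that did not enter the choice, with bars at the medians (0.05, -0.07 and -0.03) and called members in red. The calls used variation estimated from all 28 samples. No member was called between O2 and T2, 2 between W24 and O2 and 4 between W24 and T2.

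The members had a wide spread between leaves of a group. The biological coefficient of variation estimated by edgeR had a median of 0.278 over the members (0.116 to 0.659) and 0.112 over the 10977 genes in range. In C the highest library exceeded the lowest more than 3-fold in 14 members (15.7%), against 0.938% of genes in range. In O24 this held for 19 members (21.3%, against 0.474%) and in W24 for 4 (4.49%, against 0.219%). The smallest member count was 94 in C and 2 in O24. No test was made of these differences.

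Within some groups the same library was the lowest or the highest in most members. T24 replicate 4 was the lowest of the 4 T24 libraries in 79 of 89 members, while it was the lowest for 25.9% of genes in range. O24 replicate 4 was lowest in 66 members (23.3% of genes in range) and W2 replicate 2 in 57 (18.9%). The means of T24, O24, W2 and C chose the members, so an extreme library there helped genes pass the limits. The genes in range, moreover, are not limited to lowered genes. Nothing is therefore read from the counts in these groups. W24 replicate 1 was the highest of its group in 57 members (15.1% of genes in range). The median member in T24 replicate 4 stood at -2.16 relative to C, against -1.37, -1.33 and -1.67 in the other T24 leaves. In C, replicate 2 was the lowest in 42 members and the highest in 23, while it was the lowest for 13.2% and the highest for 57.9% of genes in range.

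**Figure D4:**
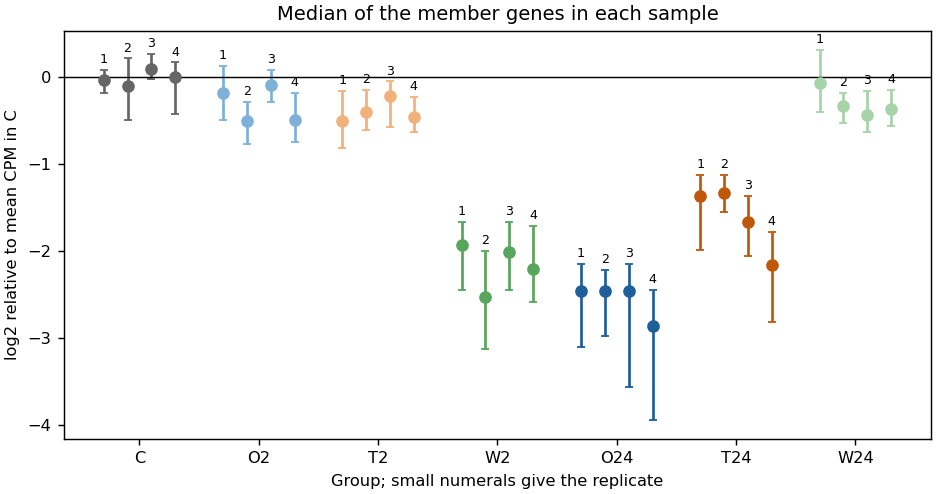
Median over 89 members of log2 of (CPM + 0.5) over (mean CPM in C + 0.5), by sample, with bars at the quartiles over members. T24 replicate 4 (-2.16), O24 replicate 4 (-2.86) and W2 replicate 2 (-2.53) lie lowest in their groups.

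**Figure D5:**
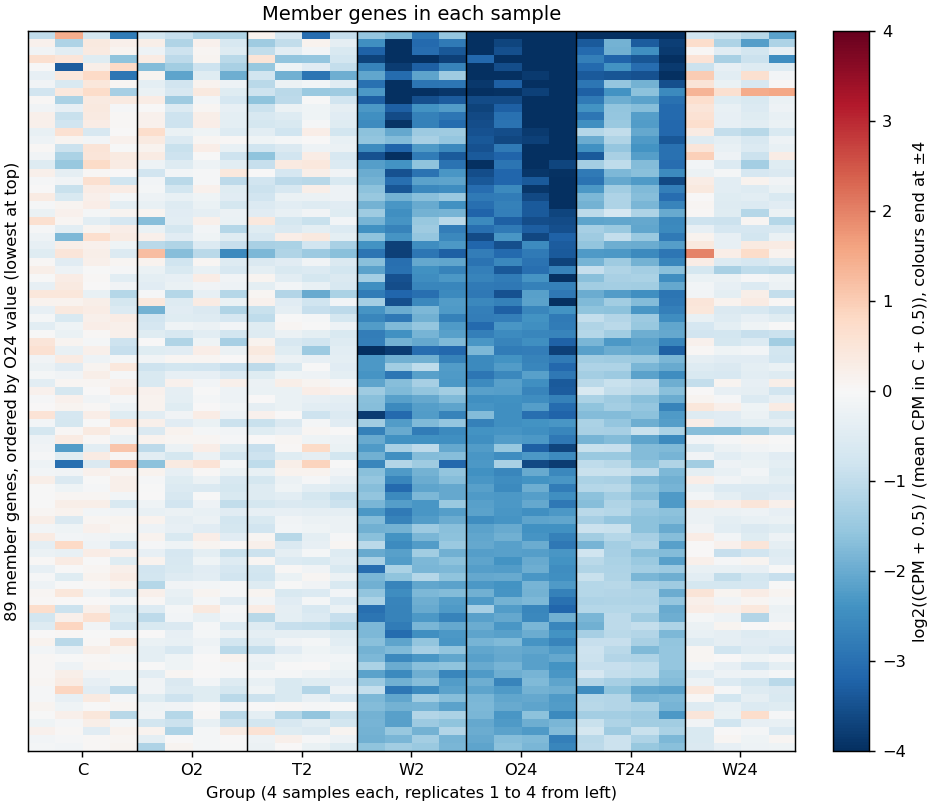
Colour gives log2 of (CPM + 0.5) over (mean CPM in C + 0.5) for each of 89 members (lines, ordered by O24) in each of 28 samples (columns). W2, O24 and T24 are mostly blue; O2, T2 and W24 are pale except in single members, and a few members vary among the 4 C libraries.

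Genes lowered by only some of the treatments gave these values in the groups left free. A set of 49 genes met the W2 limit with L over -0.5 in O24 and T24, and a set of 17 met both mite limits with L over -0.5 in W2. The median log2 fold change in W24 against C was -0.16 in the former and 0.17 in the latter, beside -0.44 in the members. In O2 the medians were -0.19 and -0.22, beside -0.32, and in T2 -0.19 and -0.15, beside -0.41. All of these sets were chosen with the same control libraries, and the differences were not tested.

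Library totals ran from 11708010 to 38321258 counts. Of the markers of leaf tissue, all 17 light-harvesting and photosystem genes were detected in every group. Their summed level was 8000 to 11036 CPM in C, 3289 to 4350 in W2, 1975 to 2926 in O24 and 3361 to 5237 in T24, then 7436 to 9143 in O2, 7521 to 9979 in T2 and 7235 to 9313 in W24. In the groups that chose the members, 7, 15 and 7 of the 17 were called lower in W2, O24 and T24 (median log2 fold change -0.88, -1.38 and -0.86), and the medians in O2, T2 and W24 were -0.32, -0.13 and -0.33. None of them met the rule. The 4 guard cell and epidermis genes summed to 15 to 31.3 CPM in C, 83.6 to 106 in W2, 14.7 to 26.9 in O24, 17.5 to 26.7 in T24, 22.8 to 45 in O2, 15.3 to 27.9 in T2 and 45 to 53.1 in W24, with the HDG11 counterpart near 0 (0.0404 CPM in C). Both wounding groups lay above every control in that sum. Of the list, 3 genes were tested. In W2, 1 was called higher and 0 lower, and the same counts held in W24, where 19.3% and 5.72% of all genes were called higher. The median log2 fold change of the list was -0.16 in W2 and -0.18 in W24, so the sum does not stand for the whole list. In O24, 1 of the 3 was called lower and 0 higher, where 15.6% of all genes were called lower. The list median in O24 was -1.29, although the O24 sums overlapped those of C. In T24, O2 and T2 0 were called, with medians of -0.42, 0.34 and 0.10. The part of either marker list in the members' levels was not tested.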

How the data were processed

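Raw counts per gene were deposited by the authors, who prepared stranded poly(A) libraries, aligned reads to Ensembl barley ASM3268v1 with STAR (2.5.1b in the submitters' processing notes) and counted uniquely aligned reads with HTSeq 0.6.0. Reads shared by near-identical genes are therefore missing. The table held 28 sample columns, 0 columns of no sample and 25592 genes, of which 0 matched the RefSeq list of assembly MorexV3, so no positions or sequences are given.

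CPM was the count over the library total. Counts were fitted with edgeR 4.0.16 (R 4.3.3) over all 28 samples, with 1 mean per group, TMM factors and robust estimates, after filterByExpr (minimum count 10) left 16948 genes. P-values were Benjamini-Hochberg adjusted over all of these. SE was the log2 fold change over the root of F. The code was tested on simulated data. The 42 replicate pairs differed by 8.59 to 96.6 chi-square per gene over genes with at least 20 counts, where 1 is sampling noise.

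The members and lists were chosen with earlier results of these data known. Named were every member on a role list, up to 6 others with a counterpart row, and 2 without (highest in C, lowest in O24); others named were chosen after their values were seen. Of 13 role lists (163 loci), only growth hormones held a member. Alternatives were DESeq2 1.42.0, RLE, upper-quartile or no scaling factors, no filter, a filter of 5 CPM in 4 samples, a fit of the groups compared, a replicate block and leaving out each replicate, and for membership TMM-scaled CPM, medians and a pseudocount of 1.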

Additional observations from a re-analysis of the deposited data

Results flagged for a closer look

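In groups of 4, the highest or lowest value was compared with its nearest neighbour as a share of the group's range, against Dixon's critical value. Of 63 groups of values tested, 7 had a value past it; chance gives about 1 in 20.

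The median member level in O24 was -2.86 in replicate 4, against -2.46, -2.46 and -2.45. The members' share of counts in W24 was 1.18% in replicate 1, against 0.847%, 0.824% and 0.835%, and MLOC_81109 in the same library read 1093 CPM, against 600, 556 and 620 CPM. MLOC_20418 in T2 read 155 CPM in replicate 4, against 174, 173 and 171 CPM. MLOC_21153 read 12.6 CPM in T2 replicate 3, against 8.69, 8.88 and 8.57 CPM, and 17.3 CPM in W24 replicate 2, against 28.9, 28.5 and 27.9 CPM. MLOC_37052 in O24 read 33.5 CPM in replicate 3, against 10.1, 9.03 and 6.55 CPM.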

How the results depend on the processing

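Across the alternatives, 89 members became 131 with TMM-scaled CPM (all 89 among them), 85 with group medians (75 shared), 77 with a pseudocount of 1 (77 shared) and 82 to 94 when 1 library was left out. Leaving out 1 library of the groups compared gave 0 to 1 members lower in O2, 0 to 1 in T2, 2 to 4 in W24, 85 to 88 in W2, 88 to 89 in O24 and 86 to 89 in T24, and 0 called between O2 and T2, 1 to 2 between W24 and O2 and 3 to 5 between W24 and T2. Over all genes, the fits without 1 library called 0 to 11 lower in O2, 1 to 7 in T2 and 30 to 68 in W24. They called 765 to 877 between W24 and O2 and 746 to 855 between W24 and T2. A fit of only the groups compared called 2 members lower in T2 rather than 1, and 5 of all genes rather than 4. The cause was not tested. Library size alone raised the median of all genes by 0.22 in O24 and in T24 and by 0.12 in W24, and upper-quartile factors moved it by -0.20 in W2 and -0.12 in O24. With the replicate number as a block, 1 member was called lower in O2 rather than 0, and 6 of all genes rather than 3. The other counts of members kept within 1.5 times. The leaves were grown in randomized blocks, but no source states that a replicate number is a block. The library numbers do run replicate by replicate, and each run holds every group once. What these runs stand for is not stated. Of 84 same-number pairs 25 correlated over 0.1 (-0.16 to 0.34, median 0.05, against -0.01 for different numbers), so not every pair did and the number was not taken as pairing; 17 of 28 samples were closest to their own number, a hint from the data that some pairing may exist.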
